A study of Mus musculus with 6 samples.

Results

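Cytochrome P450 enzymes of families 1 to 3 are the heme-containing monooxygenases that carry out most oxidation of drugs, environmental chemicals, steroids and fatty acids in the liver. The genes described here are the rows of the deposited tables whose symbol is Cyp followed by 1, 2 or 3, a single subfamily letter and a number, which gave 58 of 24411 gene rows in 16 subfamilies. Their RNA was compared in whole liver between 3 libraries labelled Control and 3 labelled Cyr61 KO. All mice were male and 24 weeks old, carried the strain label Cyr61fl/fl, and had eaten a diet that models non-alcoholic steatohepatitis (NASH) for 12 weeks. Cyr61 encodes a secreted matricellular protein. How and in which cells Cyr61 was removed is not in the labels, which name one strain throughout. Whether each library is its own mouse is not stated either, and the p-values therefore refer to the spread among libraries, which may be technical.

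P450 enzymes sit in the endoplasmic reticulum of hepatocytes and take electrons from P450 oxidoreductase. Many are switched on by the nuclear receptors CAR and PXR or by the aryl hydrocarbon receptor, and hepatocytes around the central vein of the liver lobule hold more of several of them than those around the portal tract. Mouse Cyp2c, Cyp2d, Cyp2j and Cyp3a genes lie in clusters of close copies.

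Levels below are CPM after TMM scaling in edgeR, which is reads relative to the effective size of each library, and a fold change is Cyr61 KO over Control. A gene was called when its adjusted p, from edgeR's quasi-likelihood test with Benjamini-Hochberg adjustment over all 13563 genes tested, was below 0.05. Libraries held 21032878 to 40377742 gene counts, of which the 58 genes took 1.08% to 1.94%. Cyr61 itself read 15.6, 32.4 and 27.8 CPM in Control replicates 1, 2 and 3, and 3.77, 2.66 and 3.14 CPM in the Cyr61 KO libraries. Control replicate 2 differed from the rest: 25.7% of its reads fell outside genes, against 4.27% to 7.14% elsewhere. Multiply mapped reads, which are not counted, made up 19.4% of it, against 3.74% to 5.73% elsewhere. Reads in genes made up 50.9%, against 82.8% to 87.6%. Control replicate 2 was also lowest of all libraries for 25 of the 44 P450 genes tested. Each result is therefore also given without it where the call changes. Hepatocyte markers (19 genes, from Alb to Vtn) were present at more than 0 in every library. Their summed level ran from 62733 to 135210 CPM in Control and from 139709 to 169630 CPM in Cyr61 KO, with no overlap and 0 of 19 called. The 16 macrophage markers, 4 of them called lower, summed to 1109 to 1728 CPM in Control and 317 to 869 CPM in Cyr61 KO. The part of these cell types in the P450 values was not tested beyond the scaling by hepatocyte markers given below. In whole liver, more RNA per cell and more cells of a type cannot be told apart.

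Of the 58 genes, 44 passed the filter on low counts, 7 of the 44 rose in Cyr61 KO and 2 fell. The 7 were Cyp2c37, Cyp2c54, Cyp2c50, Cyp2c29, Cyp2c67, Cyp2e1 and Cyp1a2, and the 2 were Cyp2c55 and Cyp2d12. Over all genes tested, 3.44% were called, 1.07% higher and 2.37% lower. Over all 44 tested genes, called or not, 34 fold changes were positive and 10 negative. The median log2 fold change was 0.61 against -0.03 over all genes. With libraries scaled by hepatocyte markers the split was 24 positive and 20 negative, and the median was 0.046 against -0.69 over all genes. With library totals it was 29 and 15. Under TMM scaling, 17 of the 19 hepatocyte markers also had positive fold changes, with a median log2 fold change of 0.40. In 18 of the 44 every Cyr61 KO library lay above every Control library, and in 5 every one lay below, where 17.3% and 17.9% of all genes did so. An unadjusted p below 0.05 in the same edgeR test was reached by 20 genes, 11 of which were not called. The share of all genes that reached it was not counted, so this number has no background beside it.

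**Figure D1:**
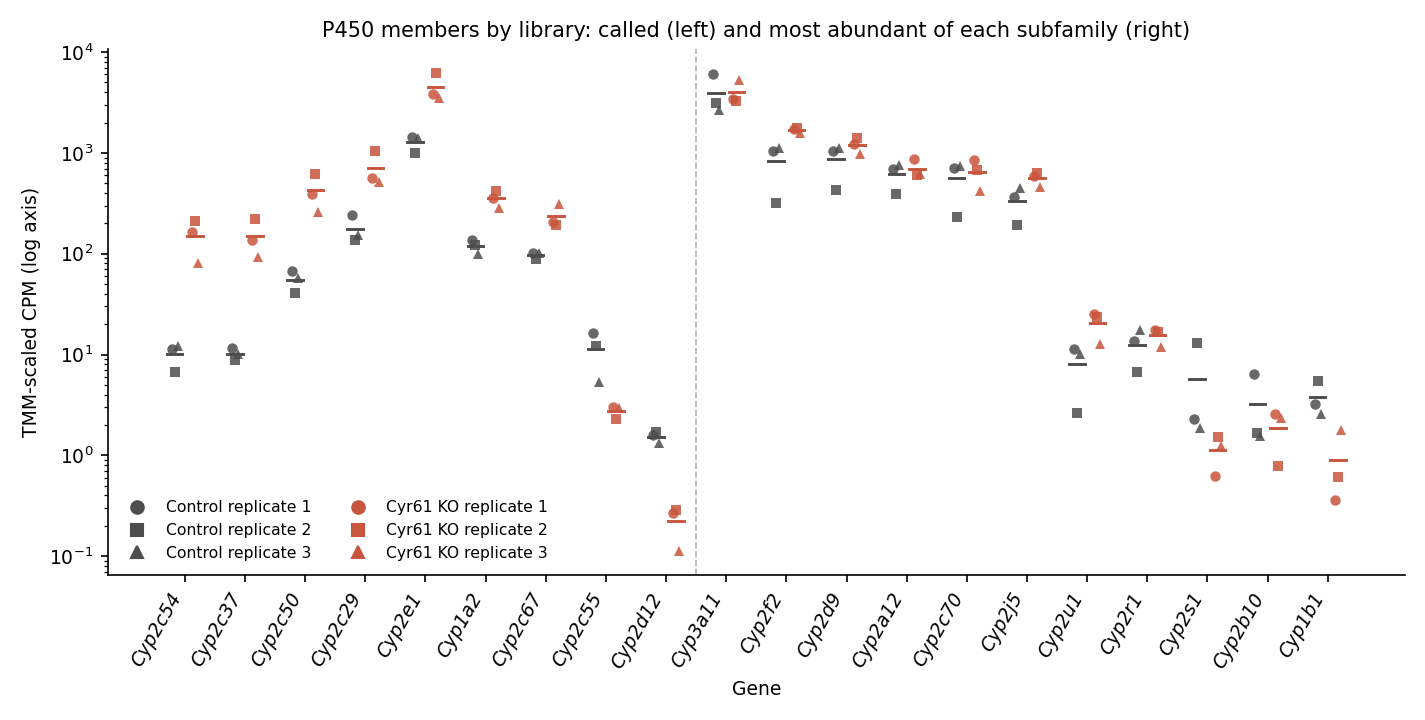
TMM-scaled CPM (log axis) of the 9 called P450 genes, left, and of the most abundant tested gene of each subfamily where that gene was not called, right. Each symbol is 1 library, grey for Control and red for Cyr61 KO, and short lines are group means. In Cyp2c37 every Control library lies between 8.88 and 11.7 CPM and every Cyr61 KO library between 92.5 and 221 CPM, while in Cyp3a11 the groups overlap.

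Of the 7 increases 5 lay in Cyp2c, the subfamily of arachidonic and linoleic acid epoxygenases and drug oxidases on chromosome 19. Of its 15 genes 13 were tested, 5 rose and 1 fell, 12 had positive fold changes, and the median log2 fold change was 1.22. The upstream sequence of 5 of the 6 called Cyp2c genes is shown because these neighbours carry the increases and the decrease. Each is the 250 bases before the RefSeq start on GRCm38.p6, printed 5′ to 3′ on the gene's strand, for Cyp2c37 (chr19:39992174-39992423, plus strand), Cyp2c50 (chr19:40089429-40089678, plus), Cyp2c29 (chr19:39286835-39287084, plus), Cyp2c67 (chr19:39649043-39649292, minus) and Cyp2c55 (chr19:39006769-39007018, plus). RefSeq windows were matched for 50 of the 58 genes. The Cyp2c29 window lies inside the GENCODE M21 span of that gene (chr19:39269405-39330713), which starts further upstream than RefSeq. Capitals mark matches, on either strand, to AGGTCA, CAAAGTCCA, TTGCNNAA or TATAAA.
Cyp2c37: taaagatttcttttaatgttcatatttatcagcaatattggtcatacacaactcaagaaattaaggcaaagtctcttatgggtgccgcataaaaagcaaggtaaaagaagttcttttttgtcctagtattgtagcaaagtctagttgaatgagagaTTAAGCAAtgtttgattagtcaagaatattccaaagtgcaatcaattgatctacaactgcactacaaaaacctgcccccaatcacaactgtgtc
Cyp2c50: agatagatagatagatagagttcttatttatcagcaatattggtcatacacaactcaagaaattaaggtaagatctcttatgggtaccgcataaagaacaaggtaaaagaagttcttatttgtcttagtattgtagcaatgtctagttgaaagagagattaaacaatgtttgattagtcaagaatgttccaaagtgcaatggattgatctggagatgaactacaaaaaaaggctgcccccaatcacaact
Cyp2c29: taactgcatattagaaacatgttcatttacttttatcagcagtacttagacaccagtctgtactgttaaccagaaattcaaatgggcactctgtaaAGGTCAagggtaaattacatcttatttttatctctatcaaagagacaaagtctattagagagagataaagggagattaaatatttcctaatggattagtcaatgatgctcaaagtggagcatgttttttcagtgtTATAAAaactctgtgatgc
Cyp2c67: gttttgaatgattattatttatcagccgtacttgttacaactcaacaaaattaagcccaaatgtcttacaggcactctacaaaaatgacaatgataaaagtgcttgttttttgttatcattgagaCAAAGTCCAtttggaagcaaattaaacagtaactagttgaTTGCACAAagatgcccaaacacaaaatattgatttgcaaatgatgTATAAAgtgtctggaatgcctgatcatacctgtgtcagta
Cyp2c55: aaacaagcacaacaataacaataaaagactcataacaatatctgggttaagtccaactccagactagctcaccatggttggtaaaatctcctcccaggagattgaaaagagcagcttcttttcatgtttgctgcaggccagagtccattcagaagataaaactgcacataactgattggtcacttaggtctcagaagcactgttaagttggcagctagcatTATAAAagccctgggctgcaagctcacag
Cyp2c37 and Cyp2c50 were identical at 215 of 255 aligned positions (84.3%), and Cyp2c29, which also rose, and Cyp2c50 at 55.9%. The most alike Cyp2c pair was Cyp2c68 and Cyp2c69, at 91.3%, and neither was called. A link between upstream identity and fold change was not tested. TATAAA, the TATA box, lay in 23 of the 50 P450 windows and in 12.4% of all 32851 windows. CAAAGTCCA, a form of the HNF4 site, lay in 8 of 50 and in 0.384% of all windows. The 8 were Cyp2c40, Cyp2c65, Cyp2c67, Cyp2c68, Cyp2c69, Cyp2c70, Cyp3a11 and Cyp3a16, of which Cyp2c67 was called. AGGTCA, a nuclear receptor half-site, lay in 15 of 50 windows and in 14.0% of all. TTGCNNAA, a C/EBP site, lay in 13 of 50 and in 9.56% of all. TTCNNNGAA, a STAT site, was in 2 of 50 against 7.02%, GCGTG, the core of the aryl hydrocarbon receptor site, in 8 of 50 against 28.2%, and the HNF1 palindrome in 0 of 50 against 0.00913%. Close copies have similar windows, such as Cyp2c40 and Cyp2c69 (77.5% identical), so their matches are not independent of each other. A gene with several windows was counted once, when any of them matched, while the share over all is per window. These are matches of letters, and no binding was measured.

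Cyp2c37, Cyp2c54 and Cyp2c50 are neighbours on chromosome 19 and had higher fold changes than the other 10 tested Cyp2c genes. Cyp2c37 (chr19:39992424-40012243), an arachidonic acid oxidase, read 11.7, 8.88 and 10.1 CPM in Control and 136, 221 and 92.5 CPM in Cyr61 KO. Its mean went from 10.2 ± 1.41 to 150 ± 65.4 CPM (SD, n = 3 each), a 14.7-fold rise with a log2 fold change of 3.87 ± 0.35 (SE) and an adjusted p of 0.0088. The lowest Cyr61 KO library was far above the highest Control library. Cyp2c54 (chr19:40037940-40073827), a neighbouring epoxygenase gene on the other strand, read 11.4, 6.71 and 12.2 CPM in Control and 162, 209 and 81.6 CPM in Cyr61 KO, a log2 fold change of 3.90 ± 0.41 with an adjusted p of 0.0103. Cyp2c50 (chr19:40089688-40113950) started higher, at 67.9, 40.5 and 57.7 CPM, and reached 395, 624 and 260 CPM, a log2 fold change of 2.94 ± 0.39 with an adjusted p of 0.0146. In all 3 genes Cyr61 KO replicate 2 was highest and replicate 3 lowest of the Cyr61 KO libraries. Cyp2c37 was called under each of the 15 alternatives, at log2 fold changes of 3.25 to 4.14. Cyp2c50 and Cyp2c54 were called under 14, and missed at an adjusted p of 0.0615 each without Cyr61 KO replicate 1. These genes share sequence: 30.1% of the 50-base windows in Cyp2c37 transcripts also occur in another gene, as do 25.7% in Cyp2c54 and 18.3% in Cyp2c50. Their summed level, which does not depend on how reads were split among them, was 91.0, 56.1 and 80.0 CPM in Control and 694, 1054 and 434 CPM in Cyr61 KO, a ratio of the means of 9.61.

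Cyp2c29 (chr19:39269405-39330713), a long-known phenobarbital-responsive gene, read 241, 138 and 152 CPM in Control and 568, 1038 and 510 CPM in Cyr61 KO. The log2 fold change was 1.995 ± 0.38 with an adjusted p of 0.0352. The groups did not overlap, and just 4.25% of its windows are shared. The call was lost without Control replicate 1 or 2 (adjusted p of 0.0545 and 0.0605) and without Cyr61 KO replicate 1 or 2 (0.0887 and 0.138). Cyp2c67 (chr19:39608842-39649051) read 102, 88.2 and 101 CPM in Control and 207, 191 and 309 CPM in Cyr61 KO, a log2 fold change of 1.28 ± 0.26 with an adjusted p of 0.0427. It belongs to a group of close copies with Cyp2c40, Cyp2c68 and Cyp2c69, and 52.8% of its windows are shared. Leaving out any 1 library ended its call, at adjusted p from 0.0549 to 0.134. The 4 copies together went from 211 ± 47.7 to 399 ± 81.2 CPM, with Control at 243, 156 and 233 CPM and Cyr61 KO at 372, 335 and 490 CPM.

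**Figure D2:**
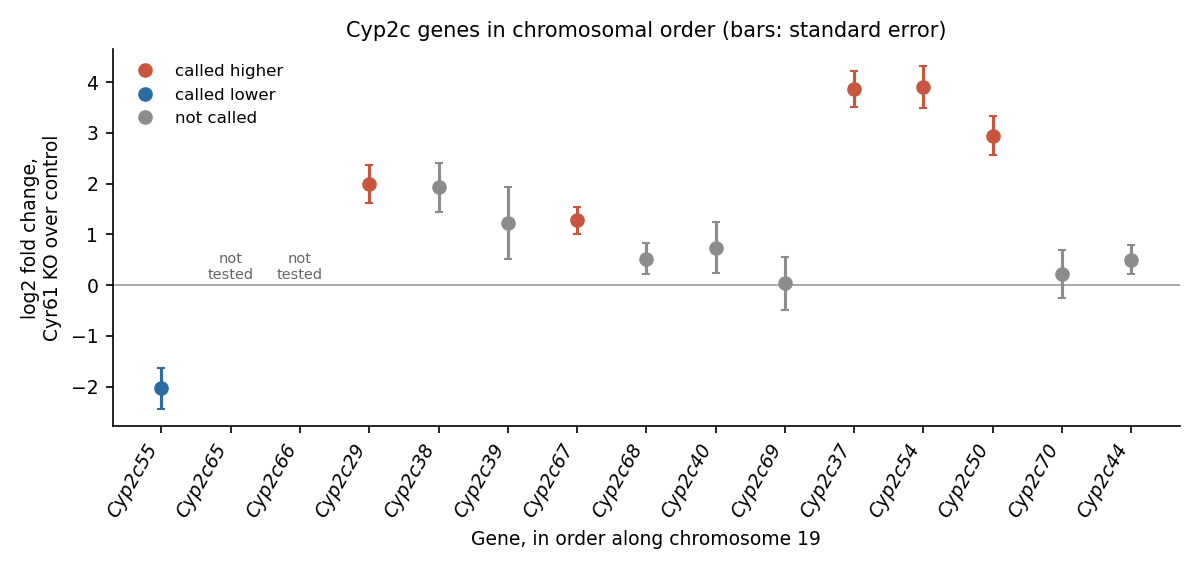
Log2 fold change of Cyr61 KO over Control (vertical axis) for the Cyp2c genes in chromosomal order, with bars giving the standard error and colours the call. The 3 neighbours Cyp2c37, Cyp2c54 and Cyp2c50 stand at 3.87, 3.90 and 2.94, while Cyp2c55 at the other end stands at -2.03.

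Cyp2c55 (chr19:39007019-39042693), an arachidonic acid hydroxylase gene at the other end of the cluster, fell. It read 16.2, 12.3 and 5.38 CPM in Control and 3.0, 2.31 and 2.94 CPM in Cyr61 KO, a log2 fold change of -2.03 ± 0.41 with an adjusted p of 0.0392. The groups did not overlap although the Control libraries spread widely. Its call was lost without Control replicate 1 or 2 (0.0817 and 0.0750) and without Cyr61 KO replicate 1 or 2 (0.0956 and 0.169). The remaining Cyp2c genes were not called. Cyp2c38 came nearest, with a log2 fold change of 1.93 and an adjusted p of 0.0639, at 12.5, 12.7 and 7.02 CPM in Control and 15.9, 37.4 and 69.4 CPM in Cyr61 KO. Cyp2c39 had 1.22, Cyp2c40 0.74, Cyp2c68 0.52, Cyp2c44 0.50, Cyp2c70 0.22 and Cyp2c69 0.04 on the log2 scale. Cyp2c70, which makes the muricholic acids of mouse bile, had the highest level per kilobase of exon of the Cyp2c genes in both groups, at 283 and 329 CPM per kilobase. It read 708, 231 and 743 CPM in Control and 856, 679 and 422 CPM in Cyr61 KO, with overlapping groups and an adjusted p of 0.781.

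Beyond Cyp2c, Cyp2e1 and Cyp1a2 rose. Cyp2e1 (chr7:140763739-140774987) oxidises ethanol, acetaminophen and small solvents, and is the sole member of its subfamily. It read 1435, 997 and 1391 CPM in Control and 3872, 6187 and 3538 CPM in Cyr61 KO. The mean went from 1274 ± 241 to 4532 ± 1443 CPM, a log2 fold change of 1.83 ± 0.38 with an adjusted p of 0.0427. The groups were well apart, while the call was lost without Control replicate 1 or 3 (0.0951 and 0.0594) and without Cyr61 KO replicate 1 or 2 (0.0920 and 0.201). Cyp1a2 (chr9:57676937-57683703), which oxidises caffeine and aromatic amines, read 136, 122.7 and 100.2 CPM in Control and 361, 422 and 282 CPM in Cyr61 KO. Its log2 fold change was 1.57 ± 0.27 with an adjusted p of 0.0272, and its spread within groups was small. The call was lost without replicate 1 of Control (adjusted p of 0.0610) and without replicate 1 or 2 of Cyr61 KO (0.0842 and 0.134). Its inducible neighbour Cyp1a1 stayed below 1 CPM in every library, with a log2 fold change of 0.57 that was not called.

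The Cyp2d subfamily on chromosome 15, relatives of the human debrisoquine hydroxylase, had 8 of 9 genes tested, 0 called higher and 1 called lower. Cyp2d12 (chr15:82555072-82560403) was that gene, at a low level. It held 56, 49 and 43 reads in Control and 9, 8 and 4 reads in Cyr61 KO, or 1.57, 1.69 and 1.33 against 0.267, 0.284 and 0.112 CPM. The log2 fold change was -2.78 ± 0.54 with an adjusted p of 0.0370. The groups did not overlap, and the call was lost without Control replicate 1 (0.0741) or any 1 Cyr61 KO library (0.0531 to 0.148). All 7 other tested Cyp2d genes had positive fold changes. Cyp2d9, a male-predominant testosterone hydroxylase gene and the Cyp2d gene with the highest mean CPM, read 1054, 430 and 1115 CPM in Control and 1232, 1391 and 975 CPM in Cyr61 KO, with overlapping groups and an adjusted p of 0.472. In this set 3 had groups that did not overlap: Cyp2d10, Cyp2d22 and Cyp2d26, at log2 fold changes of 0.91, 0.64 and 0.82 and adjusted p of 0.158, 0.175 and 0.182. Over all genes tested, 17.3% had groups apart in that direction. Cyp2d13 was not called, but was called higher without Control replicate 2, with DESeq2 and with voom with quality weights.

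Cyp3a, the subfamily of broad drug and steroid oxidases under PXR control, showed no call among 6 tested of 7 genes, and its median log2 fold change was 0.02. Cyp3a11, the main Cyp3a enzyme of mouse liver, read 6095, 3111 and 2682 CPM in Control and 3393, 3272 and 5317 CPM in Cyr61 KO. The means, 3963 ± 1859 and 3994 ± 1147 CPM, differed by a log2 fold change of 0.01 ± 0.43 with an adjusted p of 0.989. Its groups overlapped, with the highest value in Control replicate 1 and the next in Cyr61 KO replicate 3. Cyp3a25 had a log2 fold change of 0.65 (adjusted p of 0.193) with groups that did not overlap, Cyp3a44 1.14, Cyp3a59 0.02, Cyp3a13 -0.08 and Cyp3a16 -0.16. Cyp3a44 and Cyp3a16 stayed below 1 CPM in every library.

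Cyp2a also had 0 calls, among 4 of 4 genes. Cyp2a12, a testosterone hydroxylase gene, was highest and read 698, 389 and 767 CPM in Control and 864, 599 and 620 CPM in Cyr61 KO (adjusted p of 0.773). Cyp2a5, the coumarin hydroxylase, was one of the few with a negative fold change. It read 442, 249 and 297 CPM in Control and 111, 190 and 237 CPM in Cyr61 KO, a log2 fold change of -0.88 ± 0.35 with an adjusted p of 0.153, and the groups did not overlap. Its copy Cyp2a4, a female-predominant steroid hydroxylase, read 6.94, 12.5 and 7.52 CPM in Control and 3.56, 2.23 and 98.5 CPM in Cyr61 KO. A single library, Cyr61 KO replicate 3, set its log2 fold change of 1.96 ± 1.18 (adjusted p of 0.305), which was -1.61 (0.0571) without it. Of Cyp2a4's transcript windows 36.1% also occur in Cyp2a5, and the pair summed to 449, 262 and 304 CPM in Control and 115, 192 and 335 CPM in Cyr61 KO.

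Cyp2b, the classical phenobarbital-inducible subfamily, was low and had 0 calls among 2 tested of 5 genes. Cyp2b10 read 6.46, 1.65 and 1.55 CPM in Control and 2.55, 0.780 and 2.33 CPM in Cyr61 KO, with overlapping groups and an adjusted p of 0.477. Cyp2b9, a female-predominant gene, had a log2 fold change of 2.09 that was not called (adjusted p of 0.112), at 0.618, 0.998 and 0.340 against 0.743, 2.63 and 4.99 CPM. Among the single-gene subfamilies, Cyp2f2, an oxidase of naphthalene found in periportal hepatocytes, read 1040, 317 and 1113 CPM in Control and 1721, 1754 and 1561 CPM in Cyr61 KO. Its groups did not overlap, and its log2 fold change of 1.03 was not called (adjusted p of 0.188). Cyp2u1, a long-chain fatty acid hydroxylase, read 11.4, 2.62 and 10.1 against 25.4, 23.8 and 12.7 CPM (1.36, adjusted p of 0.129). Cyp2r1, which hydroxylates vitamin D, read 13.5, 6.68 and 17.4 against 17.7, 16.9 and 11.8 CPM (0.30, adjusted p of 0.586). In Cyp2j, a subfamily of arachidonic acid epoxygenases, Cyp2j5 read 366, 193 and 451 CPM in Control and 588, 625 and 463 CPM in Cyr61 KO (0.73, adjusted p of 0.211), while Cyp2j6 had -0.19 and Cyp2j9 -0.14.

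Cyp1b1 and Cyp2s1, known mainly from other tissues and cells than hepatocytes, had negative fold changes without a call in the edgeR test. DESeq2 called both lower, where it called 9.84% of all its genes lower. Cyp1b1, an oestrogen and carcinogen oxidase of stromal cells, read 3.26, 5.51 and 2.6 CPM in Control and 0.356, 0.603 and 1.77 CPM in Cyr61 KO, a log2 fold change of -2.05 with an adjusted p of 0.0899. Cyp2s1, an epithelial P450 gene, read 2.28, 13.01 and 1.89 CPM against 0.624, 1.53 and 1.23 CPM (-2.34, adjusted p of 0.105). Both had groups that did not overlap, as did 17.9% of all genes in that direction, with the highest value in Control replicate 2. The 10 stellate and fibroblast markers, of which 5 were called lower, summed to 869 to 1513 CPM in Control and 335 to 575 CPM in Cyr61 KO. The 9 cholangiocyte markers, 1 called lower, summed to 53.5 to 325 CPM and 22.3 to 38.7 CPM, highest in Control replicate 2. The 9 endothelial markers went the other way, with 2 called higher, 0 lower and 6 positive fold changes. Their part in these P450 values was not tested.

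The 14 genes that did not pass the filter were low throughout. Cyp2b19, Cyp2b23, Cyp2c66, Cyp2d34, Cyp2j12, Cyp2j13 and Cyp2w1 had 0 reads in all 6 libraries, which allows up to 0.106 CPM (3 counts) in the library with the fewest scaled counts, counting error only. Cyp2j11 had 1 read in all, Cyp2t4 2, Cyp2j8 16, Cyp2b13 27, Cyp3a57 33, Cyp2g1 64 and Cyp2c65 144. Of the reads of Cyp2c65, a gene known from the intestine, 128 came from Control replicate 2.

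Summed over all 58 genes, the P450 level was 15044, 7817 and 11742 CPM in Control and 18290, 21398 and 17980 CPM in Cyr61 KO. The ratio of the means was 1.67, and the groups did not overlap. By subfamily the ratio was 3.56 for Cyp2e, 2.96 for Cyp1a, 2.57 for Cyp2u, 2.24 for Cyp2c, 2.04 for Cyp2f and 1.65 for Cyp2d, each with groups that did not overlap. It was 1.51 for Cyp2j, 1.04 for Cyp3a and 0.950 for Cyp2a, all with overlapping groups. Control replicate 2 was the lowest library for all 58 genes together and for Cyp2e, Cyp2u, Cyp2c, Cyp2f and Cyp2d, which raised these ratios. The Cyp2d sum was 2591, 1267 and 2805 CPM in Control and 3893, 4063 and 3014 CPM in Cyr61 KO. The Cyp2c sum itself was 1571, 767 and 1472 CPM against 2786, 3519 and 2224 CPM, and the Cyp3a sum 6630, 3386 and 3218 CPM against 3960, 3909 and 5838 CPM. These sums are descriptions without a test. When libraries were scaled by their hepatocyte markers instead, the log2 ratio fell from 0.74 to 0.19 over all 58 genes, and turned from 0.05 to -0.53 for Cyp3a, from 0.24 to -0.30 for Cyp2b and from 0.31 to -0.19 for Cyp2r. Alb weighed most in that marker sum. Under that scaling the median of all genes was -0.69, and the P450 median stood 0.74 above it, against 0.63 above it with TMM.

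**Figure D3:**
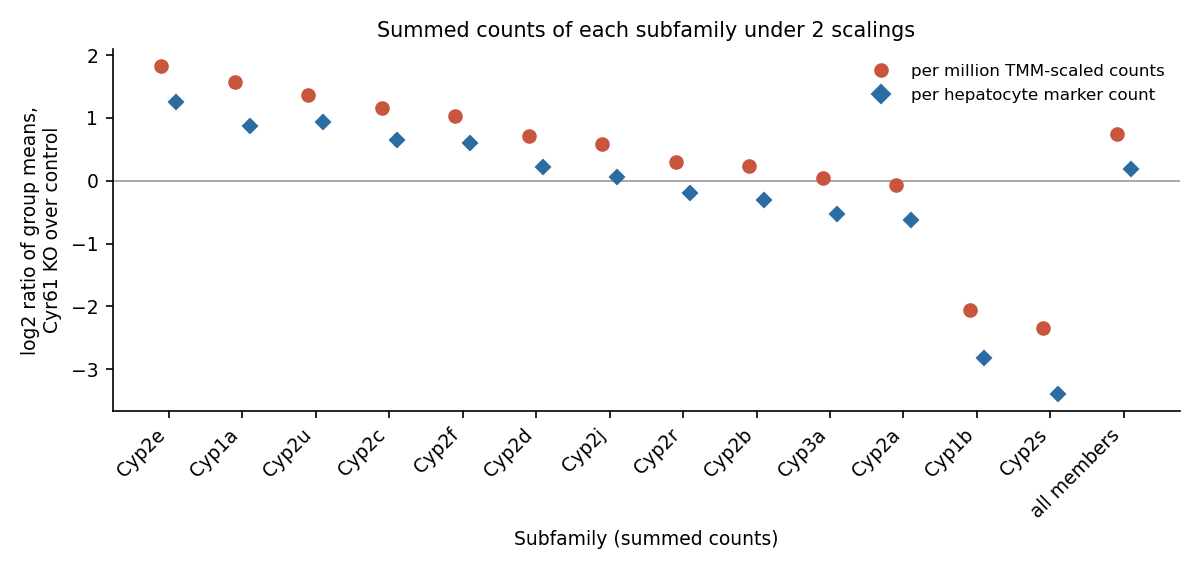
Log2 ratio of the group means (Cyr61 KO over Control, vertical axis) of the summed counts of each subfamily and of all 58 genes, in TMM-scaled CPM (circles) and per hepatocyte marker count (diamonds). Over all 58 genes the ratio is 0.74 on the first scale and 0.19 on the second, and the Cyp3a ratio changes sign from 0.05 to -0.53.

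The make-up of the P450 pool changed within libraries, a measure that needs no scaling between them. Cyp2e1 made up 9.54%, 12.7% and 11.8% of the reads of all 58 genes in Control and 21.2%, 28.9% and 19.7% in Cyr61 KO. Cyp2a fell as a share, from 7.65%, 8.40% and 9.15% to 5.36%, 3.72% and 5.35%. Neither share overlapped between groups. Cyp3a took 44.1%, 43.3% and 27.4% in Control and 21.7%, 18.3% and 32.5% in Cyr61 KO, with overlap. Within Cyp2c, the share of Cyp2c37, Cyp2c50 and Cyp2c54 together was 5.79%, 7.31% and 5.43% in Control and 24.9%, 30.0% and 19.5% in Cyr61 KO. Cyp2c44, an epoxygenase gene outside the main cluster, took 16.5%, 20.4% and 17.01% and then 9.92%, 10.6% and 13.2% of Cyp2c reads. A share also moves with the other genes of its pool. The level of Cyp2c44 itself went from 222 ± 56.6 to 314 ± 51.1 CPM (SD), and the Cyp2a sum overlapped between groups. Per 1000 reads of hepatocyte markers, Cyp2c37, Cyp2c50 and Cyp2c54 together gave 0.736, 0.894 and 0.592 reads in Control and 4.09, 7.06 and 3.10 in Cyr61 KO, a ratio of the means of 6.42. On the same measure Cyp2e1 went from 11.6, 15.9 and 10.3 to 22.8, 41.4 and 25.3 reads, and all 58 genes from 122, 125 and 86.8 to 108, 143 and 129 reads, with overlap. Scaled by hepatocyte markers, Cyp2c37, Cyp2c50 and Cyp2c54 stayed called in the edgeR fit and the other 6 genes were not, where 0.0958% of all genes were called higher.

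**Figure D4:**
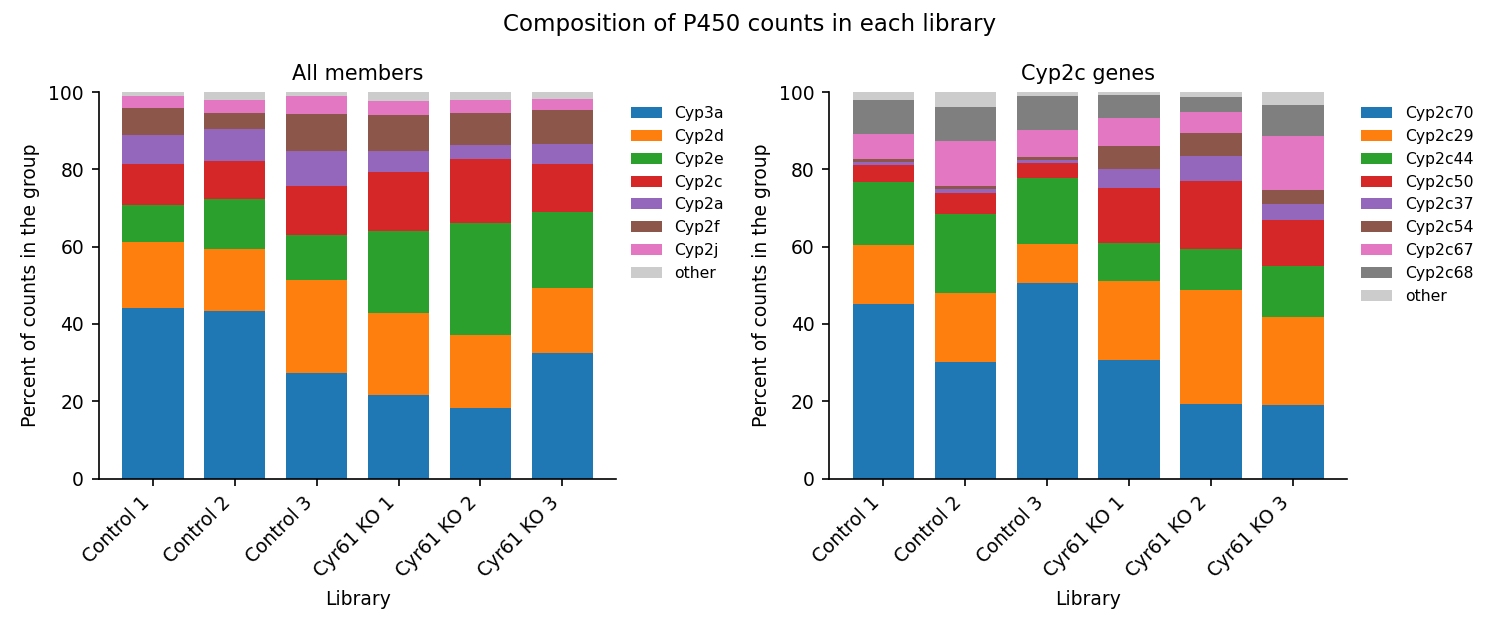
Stacked bars give the percent of counts in each library (horizontal axis), on the left by subfamily among all 58 genes and on the right by gene among the Cyp2c genes. The Cyp2e share is 9.54% to 12.7% in Control and 19.7% to 28.9% in Cyr61 KO, and Cyp2c70 takes 45.1%, 30.1% and 50.5% of Cyp2c counts in Control against 30.7%, 19.3% and 18.97% in Cyr61 KO.

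Per kilobase of annotated exon, the order of the group means shifted at the top. Cyp3a11 was first by Control mean at 778 CPM per kilobase, followed by Cyp2e1 at 590 and Cyp2f2 at 407. This Control order did not hold in every library. In Control replicate 3, with Cyp3a11 at 2682 CPM and Cyp2e1 at 1391 CPM, Cyp2e1 lay above Cyp3a11 per kilobase. In Cyr61 KO the order was Cyp2e1 at 2100, Cyp2f2 at 829 and Cyp3a11 at 784, and the last 2 did not differ beyond their spread between libraries. Cyp2c50 moved from rank 21 to 13, Cyp2c54 from 24 to 18 and Cyp2c37 from 26 to 19 of the genes placed, while Cyp2a5 moved from 9 to 17. Exon lengths are the union over GENCODE M21 transcripts, so genes with long alternative exons read low on this scale.

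Grouped by textbook knowledge rather than by subfamily, the pericentral genes held 6 of the 7 increases. Of 8 pericentral genes, all tested, 6 rose (Cyp1a2, Cyp2c29, Cyp2c37, Cyp2c50, Cyp2c54 and Cyp2e1), 0 fell, and the median log2 fold change was 1.91. The other 2, Cyp3a11 and Cyp2a5, had 0.01 and -0.88 without a call. Among known targets of CAR or PXR, 11 of 13 were tested, 4 rose (the 4 Cyp2c genes just named), Cyp2c55 fell and the median was 0.65. Cyp2b10, the usual reporter of CAR activity, and Cyp3a11, that of PXR, were in this group and were not called. Among 4 targets of the aryl hydrocarbon receptor, Cyp1a2 rose and Cyp1a1, Cyp1b1 and Cyp2s1 were not called. Of the 7 tested female-predominant genes 0 were called at an adjusted p below 0.05 and 5 had positive fold changes, and neither male-predominant gene, Cyp2d9 or Cyp2u1, was called. The groups overlap in membership, and were drawn up with earlier results of these libraries known. The shares over all genes were 1.07% called higher and 2.37% called lower.

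The rest of the P450 system was read from the same fit, where 1.07% of all genes were called higher and 2.37% lower. Among 26 tested regulators of P450 genes, 1 was called, Nr1i3, which encodes CAR. It read 15.7, 17.5 and 16.2 CPM in Control and 60.5, 51.5 and 38.1 CPM in Cyr61 KO, a 3.04-fold rise with a log2 fold change of 1.60 ± 0.22 and an adjusted p of 0.0176. The 3 Control libraries lay close together and far below the lowest Cyr61 KO library. Its call was lost without Cyr61 KO replicate 1 (0.0615) or 2 (0.0833), with library totals as scaling (0.0663) and with hepatocyte marker scaling (0.153). The other receptors and factors always named were not called, with log2 fold changes of 0.23 for Nr1i2 (PXR), 0.21 for Ahr, 0.91 for Rxra and 0.83 for Hnf4a. The median of the regulators was 0.56. Redox partners gave 0 calls among 8 genes and a median of -0.04. Por, the P450 oxidoreductase, read 366, 149 and 405 CPM in Control and 266, 224 and 182 CPM in Cyr61 KO (-0.45, adjusted p of 0.464). Among 12 heme genes 1 fell, Hmox1, the heme oxygenase that breaks heme down, from 76.2, 74.5 and 62.3 CPM to 17.7, 15.6 and 34.0 CPM (-1.66, adjusted p of 0.0334). Alas1, the rate-limiting enzyme of heme synthesis, was not called (0.45, adjusted p of 0.620).

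Other P450 families had 4 increases and 3 decreases among 27 tested genes. For these and the lists that follow, the shares over all genes were 1.07% higher and 2.37% lower. Cyp4a14 and Cyp4a10, fatty acid hydroxylases, rose by log2 fold changes of 4.11 and 2.87, Cyp8b1, the sterol hydroxylase of cholic acid synthesis, by 2.68, and Cyp26b1, a retinoic acid hydroxylase, by 1.37. Cyp4f18, a leukotriene hydroxylase of white blood cells, had -2.66, Cyp21a1, a steroid hydroxylase, -3.12 and Cyp4f16 -1.91, and these 3 fell. Among 17 drug transporters 2 rose, the bile acid and organic anion carriers Slco1a1 (4.23) and Slc10a1 (2.27). In conjugation, 1 of 16 glucuronosyltransferases rose (Ugt1a5, 2.90), 1 of 21 glutathione transferases fell (Gstp2, -1.29), and of 10 sulfotransferases Sult2a8 rose (2.61) and Sult1e1 fell (-3.98). Of 27 other oxidising and hydrolysing enzymes, 2 rose, the carboxylesterases Ces1d (1.67) and Ces1f (1.38). Close copies exist in the Ugt1a, Gstp, Sult2a, Ces1 and Cyp4a groups, so reads may have been split wrongly among them.

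Calls of the P450 genes depended on single libraries. Without Control replicates 1, 2 and 3 in turn, 3, 6 and 6 genes were called higher, where 0.312%, 0.923% and 1.14% of all genes were. Without Cyr61 KO replicates 1, 2 and 3 in turn the counts were 1, 3 and 6, against 0.0287%, 0.086% and 1.22%. Without Control replicate 2, the library that stood apart, the 6 were Cyp1a2, Cyp2c37, Cyp2c50, Cyp2c54, Cyp2d13 and Cyp2e1. Lower calls numbered 0, 1 and 4 without a Control library, against 0.949%, 1.22% and 5.17% of all genes, and 0, 0 and 2 without a Cyr61 KO library, against 0.0215%, 0.086% and 4.35%. DESeq2 called 13 higher and 4 lower, where it called 5.89% and 9.84% of all its genes. Voom with quality weights called 18 and 4, against 15.3% and 17.8%. The genes DESeq2 added were Cyp2b9, Cyp2c38, Cyp2d10, Cyp2d13, Cyp2d40 and Cyp2u1 as higher, and Cyp1b1 and Cyp2s1 as lower. Voom added the same higher genes with Cyp2d22, Cyp2d26, Cyp2f2, Cyp2j5 and Cyp2j9, and Cyp1b1 and Cyp2a5 as lower. Cyp2j9 had a negative fold change in the edgeR test. When libraries were scaled by their totals alone, 3 were higher and 0 lower (0.199% and 0.17% of all genes), as with hepatocyte marker scaling (0.0958% and 0.28%).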

How the data were processed

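RNA of mouse liver was measured by sequencing in 3 Control and 3 Cyr61 KO libraries. The authors deposited read counts per gene, 1 table per library with a column for each strand setting, and the column that matches the directional kit in the labels was used. The submitters' processing notes list Trimmomatic 0.38, STAR 2.6.1a and the builds hg38 and mm10. The annotation release is not given in the sources used here. Rows for unmapped, multiply mapped, intergenic and ambiguous reads were removed before library sizes were computed. A table of the whole series was not used here. Reads of close copies can be lost as multiply mapped or given to the wrong copy.

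The test was that of edgeR 4.0.16 under R 4.3.3 (filterByExpr, count of at least 10, total of at least 15, TMM, group term, two-sided quasi-likelihood F test, Benjamini-Hochberg over 13563 genes). To obtain an SE, the size of the log2 fold change was divided by the root of its F statistic. The test was also run on simulated data. The P450 genes and every list were chosen with earlier results of these data known. Named were all called P450 genes, the most abundant tested gene of each subfamily, tested Cyp2c and Cyp3a genes, untested genes by total count, 7 partner and regulator genes, and up to 4 called genes of each list by p; Cyp26b1, Cyp21a1 and Cyp4f16 and the uncalled genes of other subfamilies were added after their values were seen. Hepatocyte markers were 19 of 20 listed, as 1 symbol was not in the tables. Positions, exon lengths and shared 50-base windows were taken from GENCODE M21 (GRCm38, that is mm10), where 57 of 58 genes were found (Cyp2c44 as Cyp2c23), and upstream windows from RefSeq. Alternatives were DESeq2 1.42.0, limma 3.58.1 voom with quality weights, other scalings and filters, unstranded counts, a replicate block and leaving out each library. Libraries differed pairwise by more than sampling noise, with a chi-square per degree of freedom of at least 57.7.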

Additional observations from a re-analysis of the deposited data

How the results depend on the processing

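Under the 15 alternatives no call of the 9 P450 genes changed direction. With DESeq2, 13 P450 genes were called higher and 4 lower, and with limma voom with quality weights 18 and 4. With library totals only, and with hepatocyte marker scaling, 3 were called higher and 0 lower in each. Leaving out 1 library gave 1 to 6 higher and 0 to 4 lower. Of the other P450-system lists, with numbers tested as given above, 11 genes were called higher and 6 lower, against 1.07% and 2.37% of all genes. DESeq2 gave 43 and 13 (5.89% and 9.84% of all genes), and voom 60 and 21 (15.3% and 17.8%). Library totals gave 5 and 0 (0.199% and 0.17%), and hepatocyte marker scaling 5 and 1 (0.0958% and 0.28%). The fit without the low-count filter gave 20 and 10 (1.55% and 3.72%). Fits without 1 library gave 1 to 17 and 0 to 7, against 0.0287% to 1.22% and 0.0215% to 5.17%. The cause was not tested. The log2 ratio of the Cyp1a sum was 1.57 and moved to 1.27 with library totals and 0.87 with hepatocyte marker scaling. The latter also moved the ratio for Cyp2a from -0.07 to -0.62, for Cyp2e from 1.83 to 1.24, for Cyp2j from 0.59 to 0.053 and for all 58 genes from 0.74 to 0.19. The median of all genes went from -0.03 to -0.30 with library totals.

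With the replicate number as a block, 6 P450 genes were called higher and 2 lower, and 633 genes were called in all (4.67%) against 467 without the block. Cyp2c38 was gained (adjusted p of 0.0411), and Cyp2c67 (0.0631) and Cyp2e1 (0.0748) were lost. The labels do not say whether the numbers pair libraries, and the values did not show it. Same-numbered libraries had correlations of -0.06, -0.24 and -0.45 in their deviations from the group means, and no library correlated best with its own number. With 3 libraries per group these deviations are tied to each other, so the check cannot exclude pairing. Depth limits the low genes most: Cyp2d12 rests on 169 reads over all libraries.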

Other observations

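Gene rows next to these P450 genes whose symbols fall outside the naming pattern were low or overlapped between groups. Cyp2d37-ps, a pseudogene, read 8.26, 29.1 and 7.33 CPM in Control and 16.1, 15.9 and 12.8 CPM in Cyr61 KO, with overlapping groups. Cyp2ab1, Cyp2c53-ps, Cyp3a41a and Cyp3a41b stayed at or below 0.413 CPM in every library. Of the 58 genes, 8 were highest in Cyr61 KO replicate 3, Cyp2a4 and Cyp2c38 among them.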
